A study of Mus musculus with 17 samples.

Results

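The genes described here are the cytosolic ribosomal proteins, the protein components of the ribosomes of the cytoplasm. They were chosen by symbol: every gene of the array whose platform symbol has the form of a large or small subunit protein (Rpl, Rplp or Rps and a number, with the suffixes of paralogs allowed), and the gene Rpsa. The rule found 60 of the 9030 genes named on the array, 37 of the large and 23 of the small subunit. They were measured by 91 of its 20794 probes, and the rule used no measured value. Fau, whose product joins a ubiquitin-like protein to a small subunit protein, and Rpl36al do not match the rule and are not members.

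The livers came from mice labelled AFP1 kO, mutants of alpha-fetoprotein (Afp), a plasma protein that the fetal liver makes in quantity. On each 2-colour cDNA array, total RNA of 1 mutant liver was hybridised together with RNA of a pool of wild-type livers. The adult mutants were 6 males of 17 weeks, set against a pool of 6 wild-type males of that age, on 11 arrays. In 5 of these animals (animals 1, 2, 3, 4 and 6) the mutant was measured once in the dye Cy5 and once in Cy3, and animal 5 was measured in Cy5 alone. The fetal mutants were 3 male embryos (1 to 3) and 3 female embryos (4 to 6), each on 1 array with the mutant in Cy5, set against a pool for which the labels name 4 wild-type animals. The labels give the embryos an age of 7.5 E, which in mice precedes the formation of a liver, so the true stage is uncertain. The animals of that pool are identical across the fetal arrays, yet its sex is given as male on 2 of them and as female on 4. No strain, allele or cell type restriction of the mutation is given in the sources used here. Wild-type animals were hybridised only as pools, so every test below leaves out the spread among them, and a pool that departs from its animals would shift all mutants of that age together.

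A ribosome reads messenger RNA on its small subunit and joins amino acids on its large subunit. Its proteins are made in amounts that match one another, because most are needed in equal numbers per ribosome, and surplus protein is degraded. Their messenger RNAs are abundant in every growing cell, and many begin with a run of pyrimidines (C or T in the DNA), the terminal oligopyrimidine tract, through which the mTOR pathway sets how much of them is translated. In the fetal liver they are made by hepatoblasts and by the blood-forming cells that the organ houses, in the adult liver chiefly by hepatocytes.

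Promoters were looked at because many of these genes are known to start within a run of pyrimidines. RefSeq's promoter windows (assembly GRCm38.p6, 250 bases before to 50 after the start) held 52 of the 60 members. A run of at least 6 letters C or T on the gene's strand, reaching into the 20 bases on either side of the start, was present in 37 of these 52 (71.2%), against 47.8% of the 27025 genes with a window. The letters CCGGAAG on either strand, which hold the GGAA core that ETS family factors are known to bind, were present in 22 of the 52 (42.3%), against 9.9% of all genes. The 8 members without a window were Rpl30, Rpl32, Rpl7, Rpl8, Rplp1, Rps14, Rps20 and Rps29. The sequences below are those of the 5 members with the highest fetal mean among those with exactly 1 window, 80 bases before to 20 after the start. Capitals mark the longest such pyrimidine run of each window and CCGGAAG or its reverse complement. The sequences are written 5′ to 3′ on the gene's strand. They stand at chr5:65391412-65391511 (minus strand) for Rpl9, chr1:39367771-39367870 (plus strand) for Rpl31, chr12:28635934-28636033 (minus strand) for Rps7, chrX:37085203-37085302 (minus strand) for Rpl39 and chr3:90213629-90213728 (minus strand) for Rps27.
Rpl9: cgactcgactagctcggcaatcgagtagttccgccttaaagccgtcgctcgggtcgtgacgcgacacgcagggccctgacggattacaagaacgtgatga
Rpl31: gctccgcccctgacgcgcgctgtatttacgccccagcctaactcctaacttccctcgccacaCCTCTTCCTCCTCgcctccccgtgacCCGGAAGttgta
Rps7: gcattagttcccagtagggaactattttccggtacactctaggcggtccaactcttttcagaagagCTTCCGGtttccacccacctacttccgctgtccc
Rpl39: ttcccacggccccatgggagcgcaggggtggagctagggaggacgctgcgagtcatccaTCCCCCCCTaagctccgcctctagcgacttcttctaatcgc
Rps27: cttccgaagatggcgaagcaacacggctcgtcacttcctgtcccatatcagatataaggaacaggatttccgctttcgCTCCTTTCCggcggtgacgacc
Rpl31 carried both, Rps7 only CCGGAAG (as CTTCCGG, its reverse complement), and Rps27 only the run. Rpl39 carried the run, with CCGGAAG in its window but outside the stretch shown. Rpl9 carried neither by these definitions. A match is a description of the letters in the window and does not show that a factor binds there.

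The values are log2 ratios of mutant over pool as the authors deposited them, so 0 means equal to the pool and 1 a doubling. They carry no level of a gene, and markers of cell types can show a difference from the pool but not whether a cell type is present. In the embryos Afp itself measured -8.40 ± 0.23 (SD, n = 6), with a limma adjusted p of 1.25e-08, which sets the direction of the fetal ratios. In the adults it was at -0.025 ± 0.19 (SD, n = 6; limma adjusted p = 0.944) and gave no check there. The labels do not state whether the adult columns with the mutant in Cy3 had been turned to mutant over pool. They were used as deposited, a likely direction that rests on their number format and on their relation to the fetal arrays. For the members, the adult results are also given with that sign turned and for each dye. For some marker lists they are also given for each dye. Fetal values were read 11 rows further down than their probe numbers. In pairs of probes of the same gene, members left out, the Spearman correlation of the fetal means was 0.0854 at that shift and -0.004 as deposited. That was the highest of 121 shifts tried, with the next highest at 0.0656. Over the 42 pairs of member probes, too few to place a shift, the correlation was -0.12 at the shift of 11 rows and 0.076 as deposited. The number of arrays limits the precision of every value below.

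The adult comparison asks whether the members differed between adult mutant livers and the pool. In the adult mutants most members measured slightly below the pool, by a small amount that differed between animals. Of the 60 members, 52 had a mean below 0, against 48.2% of all 17039 features tested. Their median was -0.18, against 0.0081 for all features. Large subunit genes had 32 of 37 below 0 with a median of -0.19, and small subunit genes 20 of 23 with a median of -0.14. With limma and Benjamini-Hochberg adjustment over all features, 0 of 17039 features passed an adjusted p under 0.05 (0%), so 0 members did, and the smallest adjusted p among the members was 0.639. At an unadjusted p under 0.05, 1 member was higher and 9 were lower, with backgrounds of 3.38% and 4.37% of all features.

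The animals were unlike one another. The median over members was 0.12, -0.016, -0.35, -0.47, -0.19 and -0.21 in adult animals 1 to 6. Animals 3 and 4 thus lay lowest, with 55 and 53 of the 60 members below 0, while animal 1 had 42 members above 0. Without animal 4 the median over members was -0.11, as was the large subunit median, and without animal 1 the large subunit median was -0.28. The 9 hepatocyte markers measured had medians of 0.29, -0.066, -0.66, -0.79, -0.079 and -0.74 in the same animals, and 8 of the 9 had a mean below 0. The 6 erythroid markers had medians of -0.21, 0.0090, 0.040, -0.52, -0.11 and -0.14. The endothelial markers (Cdh5, Kdr, Pecam1 and Tek) were also low in animals 3 and 4, with medians of -0.17, -0.21, -0.83, -0.61, -0.043 and -0.49, and 4 of 4 had a mean below 0. The other 7 marker lists had adult medians between -0.14 and 0.15. With the mutant in Cy5 the hepatocyte medians were 0.63, 0.35, -0.53, -0.245, -0.079 and -0.45 in animals 1 to 6. In Cy3 they were -0.060, -0.19, -1.06, -1.24 and -1.03 in animals 1, 2, 3, 4 and 6. The endothelial medians were 0.11, 0.045, -1.31, -0.88, -0.043 and 0.17 in Cy5, and -0.23, 0.041, -0.91, -0.80 and -0.76 in Cy3. The labels do not state the direction of the Cy3 arrays. The part of these cell types in the members' values was not tested. In bulk liver RNA, fewer cells of a type and less RNA per cell cannot be told apart.

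**Figure D1:**
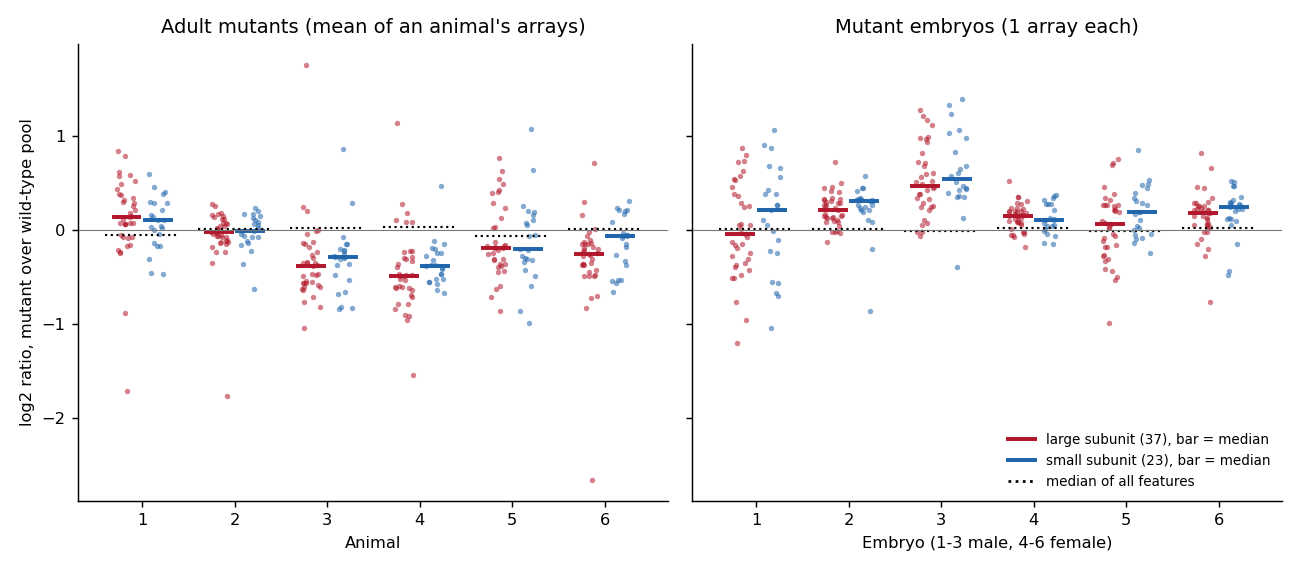
Log2 ratio of mutant over wild-type pool (vertical axis) for each ribosomal protein gene in the 6 adult mutants (left) and the 6 mutant embryos (right), large subunit genes in red and small subunit genes in blue. Bars are medians over genes and dotted lines the median of all features. Adult animals 3 and 4 have the lowest medians, -0.35 and -0.47 over all members, and embryo 3 the highest, 0.50.

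The lowest adult means belonged to 2 paralogs. Rpl7l1, a paralog of Rpl7, measured -0.88, 0.060, -0.61, -1.54 and -2.66 in animals 1, 2, 3, 4 and 6, a mean of -1.13 ± 1.03 (SD, n = 5), with no value in animal 5 (limma adjusted p = 0.639). Its spread was about as large as its mean. The value of animal 3 came from Cy5 alone and that of animal 6, the lowest, from Cy3 alone. Rpl22l1, the paralog of the RNA-binding protein Rpl22, measured 0.067, -1.77, -1.04, -0.23, -0.60 and -0.83 in animals 1 to 6, a mean of -0.73 ± 0.65 (SD, n = 6) with an adjusted p of 0.639. Rpl22 itself measured 0.32, -0.015, -0.0010, 0.19, 0.034 and -0.15 in animals 1 to 6, a mean of 0.062 ± 0.16 (SD, n = 6). The values of Rpl22l1 in animals 2 and 3 came from Cy5 alone. In Cy5 alone Rpl22 was at -0.78 and -0.51 in these animals, so both genes were below 0 there.

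Next lowest were 3 proteins of the ordinary ribosome. Rpl39, whose product lines the tunnel through which the new chain leaves the ribosome, measured 0.18, -0.23, -0.60, -0.96, -0.86 and -0.14 in animals 1 to 6, a mean of -0.44 ± 0.44 (SD, n = 6). Rps7, a small subunit protein that also takes part in ribosomal RNA processing, measured 0.16, 0.082, -0.84, -0.57, -0.86 and -0.54 in animals 1 to 6, a mean of -0.43 ± 0.44 (SD, n = 6). Rpl27a measured 0.076, -0.23, -0.56, -0.62, -0.36 and -0.70 in animals 1 to 6, a mean of -0.40 ± 0.29 (SD, n = 6). Animal 1 stood above 0 for all 3 genes, and the limma adjusted p was 0.639 for each.

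Only 1 member was below 0 in every adult and only 1 above. Rpl6 measured -0.24, -0.070, -0.13, -0.29, -0.31 and -0.36 in animals 1 to 6, a mean of -0.23 ± 0.11 (SD, n = 6). This is 1.67% of the members, against 2.89% of all features with every adult below 0. On single arrays Rpl6 lay above 0 in animal 1 in Cy5, at 0.0775. It also did in animals 2 and 3 in Cy3, at 0.16 and 0.11. Rpl39l, a paralog of Rpl39 known in mice for its high expression in the testis, measured 0.34, 0.26, 0.24, 0.28, 0.49 and 0.30 in animals 1 to 6, a mean of 0.32 ± 0.090 (SD, n = 6), and its limma adjusted p was 0.639. That again is 1.67% of the members, against 3.44% of all features with every adult above 0. Its spread over animal means was the smallest among all members in adults, and it lay above 0 in the same livers in which Rpl39 lay below 0 in 5 of 6. Its single arrays differed more, with an SD of 0.30 in Cy5 (n = 6) and 0.40 in Cy3 (n = 5). Animal 1 in Cy5, at -0.075, and animal 3 in Cy3, at -0.27, lay below 0.

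The other high adult means came with wide spreads. Rpl9 measured -1.71, -0.13, 1.76, 1.14 and 0.71 in animals 1, 2, 3, 4 and 6, a mean of 0.35 ± 1.34 (SD, n = 5) with no value in animal 5. These values come from unlike arrays. Animals 1 and 3 gave a value in Cy5 alone, animal 6 in Cy3 alone, and the 1.14 of animal 4 is the mean of 4.84 in Cy5 and -2.56 in Cy3. Rps15, near the decoding site of the small subunit, measured 0.21, -0.22, 0.86, -0.19, 0.64 and -0.53 in animals 1 to 6, a mean of 0.13 ± 0.54 (SD, n = 6). Rpl14 measured 0.58, 0.046, -0.26, -0.22, 0.54 and -0.11 in animals 1 to 6, a mean of 0.096 ± 0.37 (SD, n = 6). For both genes 3 animals lay on each side of 0.

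The proteins of the stalk, the arm of the large subunit that calls in the factors of elongation, had adult means close to the members' median of -0.18. Rplp0, its base, measured 0.076, -0.067, -0.35, -0.39, 0.43 and -0.38 in animals 1 to 6, a mean of -0.11 ± 0.33 (SD, n = 6). Rplp1 averaged -0.14 ± 0.22 (SD, n = 6) and Rplp2 -0.21 ± 0.45 (SD, n = 6). Rpsa, needed for small subunit assembly and known also as a laminin receptor, averaged -0.18 ± 0.25 (SD, n = 6). Each of the 4 had animals on both sides of 0, with limma adjusted p-values of 0.802, 0.714, 0.727 and 0.678.

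A short list of 5 members known from ribosome stress or human disease, which leaves out others so known, had means below 0, as 52 of all 60 members did. Rpl5 and Rpl11, which leave for the nucleoplasm with 5S RNA and inhibit Mdm2 when ribosome assembly fails, averaged -0.28 ± 0.60 (SD, n = 6) and -0.28 ± 0.29 (SD, n = 6). For Rpl5 the animals measured 0.84, -0.13, -0.35, -0.90, -0.62 and -0.49 in animals 1 to 6, so animal 1 stood apart above 0 from the other 5. Rps19, mutated in human Diamond-Blackfan anaemia, averaged -0.18 ± 0.33 (SD, n = 6), and Rpl26 averaged -0.28 ± 0.38 (SD, n = 6). Rps6, the substrate of the S6 kinases, averaged -0.13 ± 0.19 (SD, n = 6). Limma adjusted p-values of these 5 genes lay between 0.643 and 0.724.

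In both dye orientations, as deposited, the median over members was below 0, and it stood further from all features in Cy3. It was -0.16 with the mutant in Cy5, against -0.065 for all features, with 41 of the 60 below 0. With the mutant in Cy3 it was -0.23, against 0.079 for all features, with 48 of the 60 below 0. By animal, the Cy5 medians were 0.27, -0.030, -0.37, -0.30, -0.19 and -0.022 in animals 1 to 6. The Cy3 medians were -0.028, 0.036, -0.33, -0.57 and -0.36 in animals 1, 2, 3, 4 and 6. Animals 3 and 4 were low in both orientations.

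Rps18, of the head of the small subunit, was the member most split by dye after Rpl9. With the mutant in Cy5 it measured 0.13, 0.83, 0.82, 0.54, 1.07 and 0.82 in animals 1 to 6, a mean of 0.70. With the mutant in Cy3 it measured -1.04, -0.72, -1.57, -1.18 and -1.57 in animals 1, 2, 3, 4 and 6, a mean of -1.21. Every Cy5 value was above 0 and every Cy3 value below it. It passed the limma test over all features in both orientations taken alone, higher in Cy5 (6.55% of features called) and lower in Cy3 (4.19% called), and its mean over both dyes was -0.065 ± 0.58 (SD, n = 6). Rpl26 was also called lower in Cy3 alone, at -0.74.

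With the sign of the Cy3 arrays turned, most of the adult shift was gone. The median over members was then -0.0022, with 29 of the 60 above 0, against -0.092 for all features. Under that sign 10.4% of all features passed, and 5 members were called, all higher: Rpl13a, Rpl35, Rplp0, Rps18 and Rps28, at 0.49, 0.42, 0.41, 0.95 and 0.42. The members' median relative to all features, below it as deposited, was thus above it with the sign turned, while the -0.16 of the Cy5 arrays alone does not depend on that sign.

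**Figure D2:**
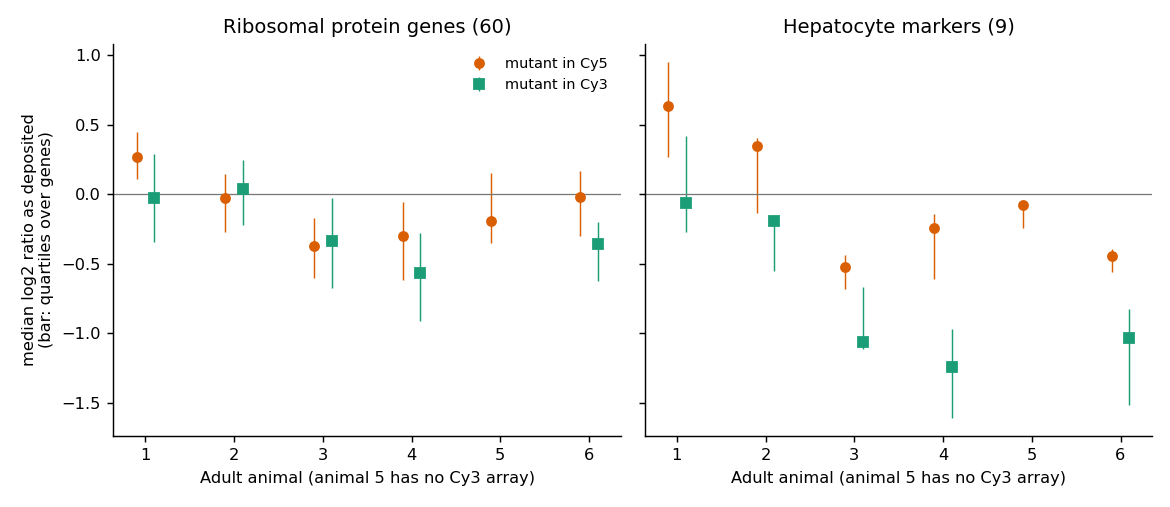
Median log2 ratio as deposited (vertical axis; bars are quartiles over genes) per adult animal, for the ribosomal protein genes (left) and the hepatocyte markers (right), with the mutant in Cy5 (circles) or in Cy3 (squares). In animals 3 and 4 the ribosomal protein medians lie below 0 with both dyes, -0.37 and -0.33 in animal 3 and -0.30 and -0.57 in animal 4.

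The fetal comparison asks the same of the mutant embryos. In the mutant embryos most members measured above the pool, and none lay below it in every embryo. Of the 60 members, 47 had a mean above 0, against 51.0% of all 17242 features, and their median was 0.19, against 0.0046 for all features. Large subunit genes had 29 of 37 above 0 with a median of 0.18, and small subunit genes 18 of 23 with a median of 0.27. With limma and Benjamini-Hochberg adjustment over all features, 26 features passed (0.151%, with 0.058% higher and 0.0928% lower), 0 of them members, and the smallest adjusted p among the members was 0.0711, of Rpl9. At an unadjusted p under 0.05, 24 members were higher and 0 lower, with backgrounds of 10.9% and 9.88% of all features.

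In every embryo with a value, 20 of the 60 members were above 0 (33.3%), against 8.27% of all features, and below 0 in every embryo were 0 members (0%), against 7.5%. The 20 were 10 large subunit genes (Rpl7, Rpl9, Rpl13, Rpl23, Rpl24, Rpl27, Rpl31, Rpl32, Rpl37 and Rpl39) and 10 small subunit genes (Rps3a1, Rps4x, Rps7, Rps13, Rps18, Rps21, Rps26, Rps27, Rps28 and Rps29). Their means ran between 0.23 and 0.69. All fetal arrays had the mutant in Cy5, so dye and genotype cannot be told apart within them.

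Embryo 3, a male, stood highest. The median over members was 0.049, 0.25, 0.50, 0.13, 0.099 and 0.21 in embryos 1 to 6. The large subunit median was -0.039, 0.21, 0.47, 0.15, 0.069 and 0.18, and the small subunit median 0.22, 0.31, 0.54, 0.11, 0.19 and 0.25. In embryo 1 the members were split, with 32 above and 28 below 0, and the small subunit stood above the large. Without embryo 3 the median over members was 0.12, with 41 members above 0, and the large subunit median was 0.079.

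Markers of cell types were read in the same embryos. The 8 hepatocyte markers tested had medians of 0.056, 0.16, 0.12, 0.49, 0.20 and 0.33 in embryos 1 to 6, and 6 of the 8 had a mean above 0. The 5 erythroid markers had medians of -0.34, -0.13, -0.0040, -0.026, -0.071 and -0.22, and 4 of the 5 had a mean below 0. Embryo 4 was highest for the hepatocyte markers and embryo 3 for the members. Embryo 3 was also highest for the granulocyte markers, at 0.30 against -0.53 to 0.091 in the other embryos, for the cholangiocyte markers, at 0.42 against -0.79 to -0.11, and for the exocrine pancreas markers, at -0.67 against -1.92 to -1.02. The endothelial markers, of which 2 were measured, and the 4 stellate markers were highest in it too, at 0.46 and 0.53. All 3 exocrine pancreas markers were below 0, and Cela2a and Cpa1 passed over all features (limma adjusted p = 0.0467 for each), at -1.30 and -1.17. Of the 8 granulocyte markers 6 had a mean below 0 and of the 5 cholangiocyte markers 4, with medians of the means of -0.18 and -0.36. The 3 megakaryocyte markers tested were all above 0 with a median of 0.36, and 0 of them passed. In adults as deposited, the megakaryocyte medians ran from 0.15 to 0.56 with the mutant in Cy5 and from -0.65 to -0.365 in Cy3. The adult exocrine pancreas medians ran from -0.45 to -0.079 in Cy5 and from -0.058 to 0.38 in Cy3. Adult hepatocyte medians were higher in Cy5 than in Cy3 in all animals with both dyes. The part of the dye in the fetal marker values was not tested. The part of these cell types in the members' values was not tested.

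**Figure D3:**
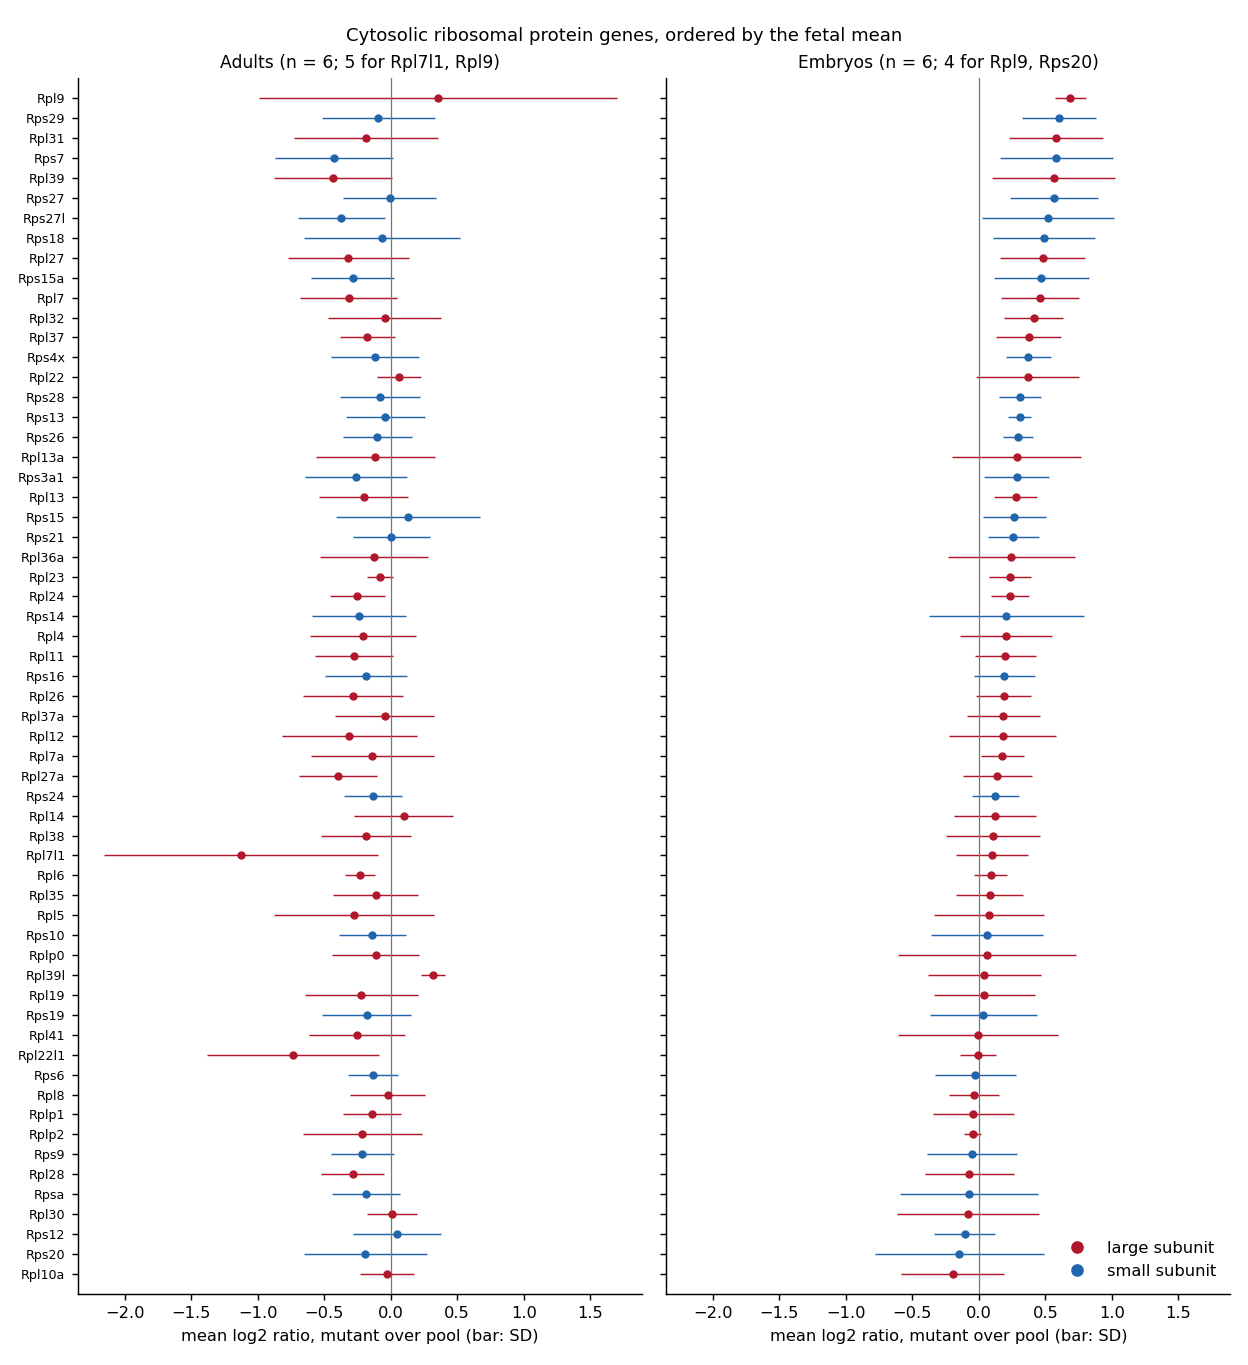
Mean log2 ratio of mutant over pool (horizontal axis; bars are SD) of each ribosomal protein gene in adults (left) and embryos (right), ordered by the fetal mean, large subunit genes in red and small subunit genes in blue. Most means lie left of 0 in adults (52 of 60) and right of 0 in embryos (47 of 60).

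The highest fetal means were 5 genes above 0 in every embryo that gave a value. Rpl9 measured 0.80, 0.72, 0.52 and 0.71 in embryos 1, 2, 4 and 5, a mean of 0.69 ± 0.12 (SD, n = 4), with no value in embryos 3 and 6. Rps29, a small zinc-binding protein of the head of the small subunit, measured 1.06, 0.45, 0.83, 0.32, 0.47 and 0.47 in embryos 1 to 6, a mean of 0.60 ± 0.28 (SD, n = 6) with a limma adjusted p of 0.078. Rpl31 measured 0.46, 0.40, 1.21, 0.22, 0.75 and 0.44 in embryos 1 to 6, a mean of 0.58 ± 0.35 (SD, n = 6) with an adjusted p of 0.0896. Embryo 1 was the highest for Rps29, and embryo 3 for Rpl31.

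Rps7 and Rpl39, both among the lowest in adults, followed. Rps7 measured 0.68, 0.32, 1.39, 0.36, 0.27 and 0.47 in embryos 1 to 6, a mean of 0.58 ± 0.42 (SD, n = 6) with a limma adjusted p of 0.109. Rpl39 measured 0.87, 0.33, 1.27, 0.23, 0.021 and 0.66 in embryos 1 to 6, a mean of 0.56 ± 0.46 (SD, n = 6) with an adjusted p of 0.128. Embryo 3 gave the highest value of both, followed by embryo 1, and embryo 5 the lowest.

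A narrow spread marked other members. Rps13 measured 0.26, 0.19, 0.36, 0.28, 0.45 and 0.30 in embryos 1 to 6, a mean of 0.31 ± 0.089 (SD, n = 6) with a limma adjusted p of 0.0889. Rps26, at the channel where messenger RNA leaves the small subunit, measured 0.42, 0.24, 0.40, 0.12, 0.29 and 0.29 in embryos 1 to 6, a mean of 0.29 ± 0.11 (SD, n = 6). Rps4x, an X-linked gene in mice, measured 0.38, 0.57, 0.58, 0.28, 0.20 and 0.23 in embryos 1 to 6, a mean of 0.37 ± 0.17 (SD, n = 6). In these 3 genes the lowest embryo was still above 0.10.

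The lowest fetal means were small. Rpl10a measured -0.96, 0.040, -0.018, 0.080, -0.18 and -0.15 in embryos 1 to 6, a mean of -0.20 ± 0.39 (SD, n = 6), and only embryo 1 was far below 0. Rps20 measured 0.21, -0.86, 0.53 and -0.47 in embryos 1, 2, 5 and 6, a mean of -0.15 ± 0.64 (SD, n = 4) with no value in embryos 3 and 4. Rps12 averaged -0.11 ± 0.23 (SD, n = 6), Rpl30 -0.079 ± 0.53 (SD, n = 6) and Rpsa -0.077 ± 0.52 (SD, n = 6). Their limma adjusted p-values lay between 0.45 and 0.83, and each had embryos on both sides of 0.

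The stalk proteins were near the pool on average. Rplp0 measured -1.20, 0.33, 0.29, 0.35, 0.69 and -0.099 in embryos 1 to 6, a mean of 0.059 ± 0.67 (SD, n = 6), with embryo 1 far below the others. Rplp1 averaged -0.043 ± 0.30 (SD, n = 6), and Rplp2 averaged -0.047 ± 0.067 (SD, n = 6), the narrowest spread among all members in embryos. Whether the stalk differed from the other members was not tested. Rpsa measured -1.05, 0.27, 0.43, 0.079, -0.039 and -0.15 in embryos 1 to 6, again with embryo 1 lowest.

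Among the members of ribosome stress and disease the values were mixed. Rpl11 averaged 0.20 ± 0.23 (SD, n = 6) and Rpl5 0.075 ± 0.42 (SD, n = 6). Rpl26 averaged 0.19 ± 0.21 (SD, n = 6), Rps19 0.032 ± 0.40 (SD, n = 6) and Rps6 -0.027 ± 0.30 (SD, n = 6). Their limma adjusted p-values lay between 0.276 and 0.915, and all 5 had embryos on both sides of 0.

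Paralogs and their parent genes were set side by side. Rps27, a zinc-finger protein of the small subunit, measured 0.90, 0.24, 1.03, 0.28, 0.40 and 0.52 in embryos 1 to 6, a mean of 0.56 ± 0.33 (SD, n = 6). Rps27l, its paralog, known in human cells as a target of p53, measured 0.87, 0.33, 1.33, -0.061, 0.31 and 0.32 in embryos 1 to 6, a mean of 0.52 ± 0.50 (SD, n = 6). For both genes embryo 3 was highest and embryo 1 next. Rpl39l averaged 0.042 ± 0.43 (SD, n = 6), against 0.56 ± 0.46 (SD, n = 6) for Rpl39. Rpl22l1 averaged -0.0070 ± 0.14 (SD, n = 6), against 0.37 ± 0.39 (SD, n = 6) for Rpl22, and Rpl7l1 averaged 0.10 ± 0.27 (SD, n = 6), against 0.46 ± 0.29 (SD, n = 6) for Rpl7. In these last 3 pairs the paralog's mean was nearer to 0 than its parent's. Probes of cDNA arrays can hybridise to close copies and to pseudogenes, of which ribosomal protein genes have many, and whether these probes separate them was not tested.

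Since the fetal arrays share 1 dye layout, the adult dye swaps were used to see how the members lean with the dye. The dye profile is the Cy5 orientation minus the Cy3 orientation, divided by 2, averaged over the adults with both dyes. These were 5 for 57 members, 3 for Rpl22l1 and Rpl7l1 and 2 for Rpl9. The profile is the part of a log ratio that turns with the dye only if the Cy3 columns are mutant over pool, as used here. With their sign turned, the same quantity would be the adult mutant ratio averaged over both dyes. Over the members the profile had a median of 0.050, against -0.082 for all features. It was above 0 for 37 of the 60 members, and for 13 of the 20 that were above 0 in every embryo. With the dye profile subtracted from the fetal values, the median over members was 0.12, against 0.042 for all features, and 40 of 60 were above 0. Under that setting 30% of all features passed, and 19 of the 60 members were called, a share near that of all features. Of the 19, 15 were called higher. Calls over all features were not split by direction under that setting, so the 15 have no share beside them. The profile was subtracted as a fixed value, so its own spread among the adults does not enter these calls. Across the 60 members, measured by the same probes, the dye profile and the fetal mean had a Pearson correlation of 0.33 and a Spearman correlation of 0.19. Rpl9 was highest in both, with a profile of 2.10 from 2 animals, and the correlation without it was not computed.

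Single members turned under this subtraction. Rpl9 had the largest dye profile, 2.10, the mean of 0.51 in animal 2 and 3.70 in animal 4, so that its fetal value became -1.41. Without animal 4 in the profile, it was 0.18. Rps18, with a dye profile of 0.92, became -0.43, and Rpl35, of the tunnel exit, became -0.35. All 3 were then called lower, as was Rpl22l1 at -0.58. With the profile taken without animal 4, 29.6% of all features and 18 members passed, and Rps18 and Rpl22l1 were the 2 called lower. Rps7, with a dye profile of -0.20, stood at 0.78 and Rpl23, with -0.38, at 0.61. Both were called higher.

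**Figure D4:**
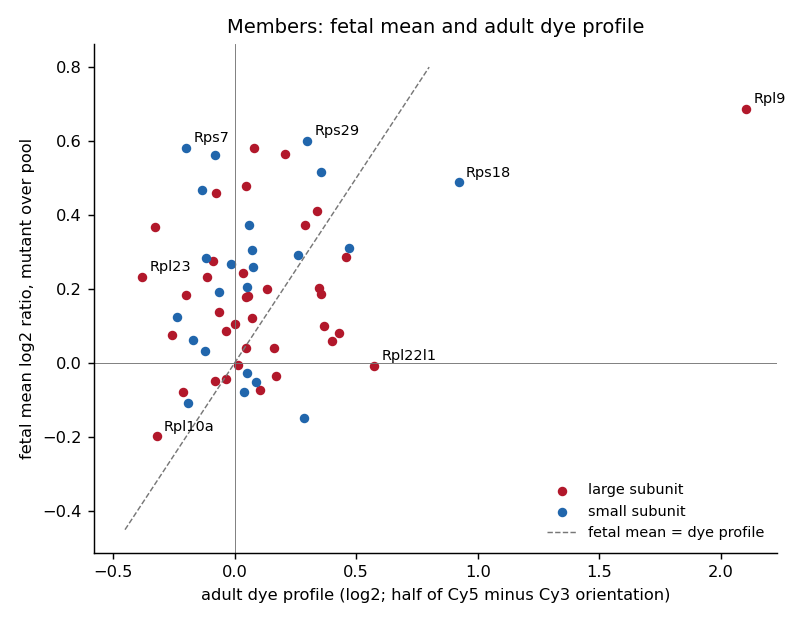
Fetal mean log2 ratio of mutant over pool (vertical axis) against the adult dye profile (horizontal axis, log2) for the 60 ribosomal protein genes, large subunit in red and small subunit in blue, with a dashed line where both are equal. Rpl9 lies far right at a dye profile of 2.10, Rps18 at 0.92, and Rps7 and Rpl23 left of 0. The profile shows dye only if the adult Cy3 columns are mutant over pool, as used here.

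With the fetal names as deposited, without the shift of 11 rows, the median over the rows then named as members was -0.027, with 27 of 60 above 0. The fetal pattern of the members is thus tied to the shift.

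The comparison of adults with embryos used the 6 adult and 6 fetal arrays that share the dye layout, with the mutant in Cy5. Age and pool change together in it and cannot be told apart. All adults were male, while the embryos were of both sexes. Measured against its own pool, 52 of the 60 members stood lower in adult than in fetal mutants, against 52.3% of all 16314 features, with a median difference of -0.30, against -0.022. Large subunit genes had 31 of 37 lower with a median of -0.29, and small subunit genes 21 of 23 with a median of -0.32. With limma over all features, 23 passed (0.141%, with 0.0919% higher and 0.049% lower in adults), 0 of them members. At an unadjusted p under 0.05, 19 members were lower and 0 higher, with backgrounds of 9.24% and 11% of all features.

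Rps7 had the largest difference. It measured 0.30, -0.38, -1.32, -0.45, -0.86 and -0.85 in adult animals 1 to 6 with the mutant in Cy5, against 0.68, 0.32, 1.39, 0.36, 0.27 and 0.47 in embryos 1 to 6, a difference of -1.17 ± 0.27 (SE) with a limma adjusted p of 0.0711. Only adult animal 1 overlapped the embryos. Rps15a differed by -0.87 ± 0.25 (SE), Rpl7 by -0.84 ± 0.21 (SE), Rpl39 by -0.83 ± 0.27 (SE) and Rpl27 by -0.76 ± 0.20 (SE). Their adjusted p-values were 0.0964, 0.0781, 0.126 and 0.084.

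In 2 members the ages did not overlap, all adults below all embryos (3.33%, against 1.15% of all features), and in 0 members the other way (0%, against 1.14%). Rpl23, at the interface of the subunits, measured -0.17, -0.66, -0.23, -0.79, -0.17 and -0.36 in adult animals 1 to 6, against 0.059, 0.21, 0.51, 0.10, 0.27 and 0.26 in embryos 1 to 6, a difference of -0.63 ± 0.15 (SE) with a limma adjusted p of 0.0723. Rps27 measured 0.20, 0.15, -0.23, -0.46, -0.065 and -0.044 in adult animals 1 to 6, against embryo values between 0.24 and 1.03, a difference of -0.64 ± 0.18 (SE) with an adjusted p of 0.0882. With the mutant in Cy3, the adult means of these genes were 0.32 for Rpl23 and 0.083 for Rps27.

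The largest differences the other way were uncertain. Rpl9 differed by 0.63 ± 1.13 (SE), with 4 adult arrays of -1.71, 0.37, 1.76 and 4.84 against the 4 embryos given above. Rpl39l differed by 0.31 ± 0.21 (SE), Rps18 by 0.21 ± 0.20 (SE), Rps20 by 0.19 ± 0.30 (SE) and Rpl35 by 0.16 ± 0.16 (SE). Their limma adjusted p-values lay between 0.432 and 0.79.

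Adult animal 1 decided how many members passed. Without it, 7.59% of all features and 12 members passed, all 12 lower in adults: Rpl6, Rpl7, Rpl23, Rpl24, Rpl27, Rpl27a, Rpl31, Rpl39, Rps3a1, Rps7, Rps15a and Rps27. The median difference over members was then -0.41. Without any other single animal 0 members passed. The replicate numbers shared by the ages name arrays and not animals, and only 1, 3 and 5 occur in both ages here. With the numbers as a replicate block, the difference thus rests on adult animals 1, 2 and 3 and embryos 1, 3 and 5. Under that block 10 features and 0 members passed, with a median of -0.21 over the members. So few animals make a pass hard to reach. Across the 60 members the adult mean over both dyes and the fetal mean had a Pearson correlation of 0.047.

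Between the sexes, 44 of the 60 members stood lower in the 3 female than in the 3 male embryos, against 50.1% of all 17212 features, with a median of -0.16, against -0.00033. Mitochondrial ribosomal proteins leaned the same way, with 42 of 59 lower in females and a median of -0.092. Translation factors had 20 of 44 lower and genes of ribosome biogenesis 22 of 44. With limma over all features 2 passed (0.0116%), 0 of them members. At an unadjusted p under 0.05, 3 members were lower in females and 0 higher, with backgrounds of 1.64% and 1.54% of all features. Without embryo 3, a male, the median over members was 0.033 with 31 members above 0. Without embryo 4 that median was -0.10, and without embryo 5 it was -0.094. The pool is labelled female for all 3 females and for embryo 3, and male for embryos 1 and 2. The mouse identifiers begin with K for embryos 1 and 2 and with L for embryo 3 and all females, and the sources used here do not say what the letter stands for. With the letter as a block, which sets the females against embryo 3 alone, the median over members was -0.40, against 0.0083 for all features. Under that block 31 features (0.181%) and 0 members passed. With embryo 3 left out, sex and letter cannot be told apart.

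In 6 members all females lay below all males (10%, against 4.85% of all features) and in 1 all females lay above (1.67%, against 4.74%). Rps27l averaged 0.19 ± 0.22 (SD, n = 3) in females and 0.84 ± 0.50 (SD, n = 3) in males, the largest difference at -0.66 ± 0.27 (SE). Rpl36a, an X-linked gene, averaged -0.071 ± 0.20 (SD, n = 3) in females and 0.56 ± 0.48 (SD, n = 3) in males, a difference of -0.63 ± 0.26 (SE). Rpl7 averaged 0.24 ± 0.038 (SD, n = 3) in females and 0.68 ± 0.26 (SD, n = 3) in males, a difference of -0.44 ± 0.17 (SE). Rps3a1, Rps4x and Rpl9, this last with 2 embryos of each sex, were the others below.

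Rps12 was the member with all females above all males, averaging 0.059 ± 0.19 (SD, n = 3) in females and -0.27 ± 0.10 (SD, n = 3) in males. Rpl39 and Rpl39l differed by -0.52 ± 0.28 (SE) and -0.47 ± 0.27 (SE) with overlapping sexes. On the other side, Rplp0 differed by 0.51 ± 0.44 (SE), Rps20 by 0.35 ± 0.51 (SE), Rpl10a by 0.23 ± 0.29 (SE) and Rpl14 by 0.22 ± 0.23 (SE), each with overlap. The limma adjusted p was 0.998 for each member named here.

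How far the probes of 1 gene differ shows what a gene mean is worth. In 37 members a single probe gave the value, and 23 had more. The range between a member's probe means had a median of 0.20 in adults and 0.27 in embryos, about the size of the members' median ratio itself. Probes of opposite sign occurred in 8 of the 23 members in adults and in 9 in embryos. Counted by probe, 78 of 91 had a mean below 0 in adults and 69 of 91 a mean above 0 in embryos.

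The 6 members with 3 or more probes were looked at one by one. Rps21, with 5 probes, had probe means between -0.20 and 0.23 in adults and between -0.040 and 0.50 in embryos. Rps26 had probe means of -0.16 ± 0.28, -0.054 ± 0.50 and -0.090 ± 0.24 in adults and 0.11 ± 0.12, 0.51 ± 0.22 and 0.26 ± 0.18 in embryos (SD, n = 6). Its 3 probes shared a sign within each age.

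Rpl4, of the tunnel wall, had probe means of -0.25 ± 0.23, -0.16 ± 0.75 and -0.22 ± 0.46 in adults and 0.21 ± 0.26, 0.28 ± 0.40 and 0.12 ± 0.74 in embryos, also of 1 sign per age. Rpl14 had 0.44 ± 0.50, -0.052 ± 0.48 and -0.096 ± 0.29 in adults and 0.29 ± 0.25, 0.00050 ± 0.44 and 0.071 ± 0.28 in embryos, and its high adult mean came from 1 probe. Rpl35 had -0.31 ± 0.29, -0.017 ± 0.51 and -0.018 ± 0.65 in adults and -0.17 ± 0.23, -0.29 ± 0.76 and 0.49 ± 0.42 in embryos, the second fetal value from 3 embryos only. Rpl8, near the peptidyl transferase centre, had -0.045 ± 0.24, 0.087 ± 0.35 and -0.11 ± 0.39 in adults and -0.35 ± 0.42, 0.10 ± 0.31 and 0.14 ± 0.34 in embryos. The probes of Rpl35 and Rpl8 thus took both signs in embryos.

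The widest fetal range was that of Rpl30, whose 2 probes averaged -0.55 ± 0.86 and 0.40 ± 0.36. Its fetal mean near 0 is the middle of 2 opposite values, and the probes of Rplp0 and Rps24 also took both signs in the plot of probe means.

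**Figure D5:**
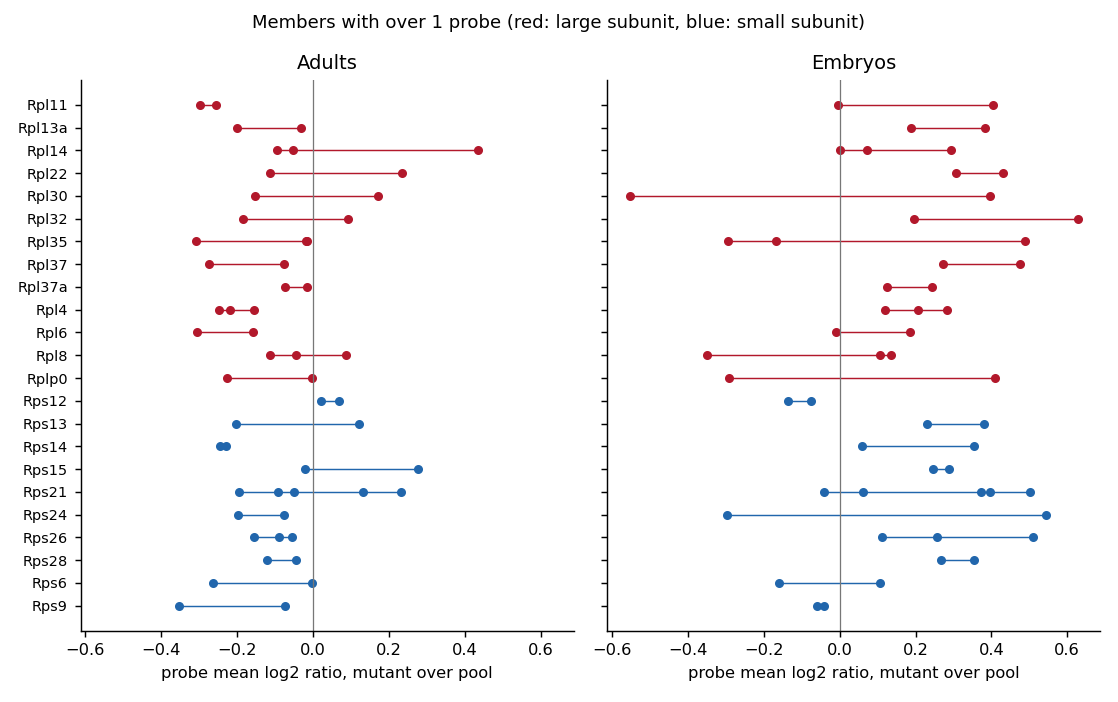
Mean log2 ratio of mutant over pool (horizontal axis) of each probe of the 23 ribosomal protein genes with more than 1 probe, in adults (left) and embryos (right), with a line joining the probes of a gene. The widest range in adults is 0.53 (Rpl14) and in embryos 0.95 (Rpl30).

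Other genes of protein synthesis had medians nearer to 0 in both ages. In adults the 61 mitochondrial ribosomal proteins had a median of 0.014 with 28 below 0, the 44 translation factors (genes named Eif or Eef) -0.047 with 26 below 0, and the 47 genes of ribosome biogenesis 0.0063 with 23 below 0. In embryos 41 of 59 mitochondrial ribosomal proteins, 30 of 44 translation factors and 27 of 44 biogenesis genes were above 0, with medians of 0.058, 0.064 and 0.052. In adults and in embryos 0 of these genes passed over all features. Fau, the fusion gene outside the rule, was at 0.22 in adults and 0.49 in embryos. No test compared the lists with one another.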

How the data were processed

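Total RNA of mutant livers and of a wild-type pool was labelled with Cy3 and Cy5, per the labels' protocols, and hybridised to 17 cDNA arrays. The deposited values are log2 ratios of the channels. Their log base is an inference from the size of the values, and the sources used here do not give the image analysis, background correction or normalization. Probe symbols came from the platform annotation and all members matched RefSeq (GRCm38.p6). Probes were averaged per gene and arrays per animal. Fetal values of probes up to 20000 were read 11 rows further down, and other fetal values stayed unnamed.

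Tests used limma 3.58.1 in R 4.3.3 on all features with a value in at least 4 animals (2 of each sex), with Benjamini-Hochberg adjustment and a threshold of 0.05, and were tested on simulated data. In these, 65 of 100 changes of 1 log2 unit were recovered for adults (17053 features), 88 for embryos (17316 features) and 53 between ages (16522 features). False calls were 2 of 158, 17 of 202 and 28 of 175 calls (1.27%, 8.42% and 16%), so the last 2 tests exceeded the intended 5% there.

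Members, lists and tests were chosen with earlier results of these data known. The text names, per age, the 5 highest and 5 lowest means, the stalk proteins and Rpsa, stress and disease members, paralogs with their parents and members with 3 or more probes. Between ages and sexes it names the 5 largest differences each way. Rps13, Rps4x, Rps3a1, Rpl6, Rpl23, Rpl26 in Cy3 and members called under an alternative were added after their values were seen. Alternatives were the sign and dye of the adult arrays, fetal names as deposited, the dye profile subtracted, median centring, no values beyond 10, probes kept apart, no missing values, a robust prior, single animals left out and a replicate block. The dye profile without animal 4 and the identifier letter as a block were added after seeing the data. Replicate numbers are array numbers in the titles, so they pair no animals.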

Additional observations from a re-analysis of the deposited data

Results flagged for a closer look

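For each gene and for the medians over all, large and small subunit members, the 4 to 6 animals of an age with a value formed a group. A group was looked at again where 1 animal stood apart from the others by more than Dixon's 95% critical value. Of 126 groups tested, 10 met this (7.94%), and chance alone gives about 5%. Embryo 1 was the low one for 4 genes. Rpl10a was at -0.96 in embryo 1, against -0.18 to 0.080 in the other embryos. Rpl14 was at -0.47, against 0.15 to 0.38, Rpl7a at -0.13, against 0.18 to 0.34, and Rps9 at -0.70, against -0.13 to 0.17. Adult animal 5, measured in Cy5 alone, stood apart for 3 genes. Rpl32 was at 0.76 in that animal, against -0.47 to -0.036 in the others, Rps18 at 1.07, against -0.45 to 0.056, and Rps3a1 at -0.99, against -0.27 to 0.11. The values of the other adults are means over both dyes, so unlike arrays are set side by side. In Cy5 alone the others lay between -0.17 and 0.31 for Rpl32. For Rps18 the Cy5 values given above were all above 0, so that flag goes with the dye layout. Rps7 was at 1.39 in embryo 3, against 0.27 to 0.68 in the other embryos. Rpl39l was at -0.76 in embryo 6, against 0.027 to 0.48, and Rpl7l1 at -0.44 in embryo 5, against 0.13 to 0.29. The causes were not tested.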

How the results depend on the processing

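With the sign of the adult arrays with the mutant in Cy3 turned, 1764 features and 5 members passed in adults (Rpl13a 0.49, Rpl35 0.42, Rplp0 0.41, Rps18 0.95 and Rps28 0.42). With Cy5 alone 1106 features and 1 member passed (Rps18 0.70), and with Cy3 alone 699 features and 2 members. In embryos, fetal names as deposited gave medians of -0.027 over members, -0.0085 over the large and -0.027 over the small subunit. With the dye profile subtracted 4930 features and 19 members passed, with Rpl35 at -0.35, Rpl9 at -1.41 and Rps18 at -0.43. With the profile taken without adult animal 4, an alternative chosen after seeing the data, 4863 features and 18 members passed, with Rps18 at -0.45 and Rpl9 at 0.18. Both settings took the profile as a fixed value and left its spread among adults out of the test. Without values beyond 10, 83 features and 1 member (Rpl9) passed, with a robust prior 81 and 1 (Rpl9), with each probe a feature 88, with no missing values 61, and with 1 embryo left out 2 to 5.

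Between ages, names as deposited gave 1579 features, 3 members and medians of -0.064, -0.073 (large) and -0.064 (small subunit), with Rps27 at 0.86. Adult means over both dyes gave 9 features, the replicate block 10, no values beyond 10 gave 42, no missing values 36 and a robust prior 40. With 1 animal left out, 4 to 1224 features and 0 to 12 members passed, the highest without adult animal 1. Without embryo 5, 78 features passed. Between sexes, names as deposited gave medians of 0.0098 and 0.0047 (small subunit). No values beyond 10 and no missing values gave 0 features each, a robust prior 1, and leaving out 1 embryo 0 to 4 features, with a median between -0.23 and 0.033. The identifier letter as a block, also chosen after seeing the data, gave 31 features and medians of -0.40, -0.37 (large) and -0.40 (small subunit). The replicate block and the other alternatives called 0 members. Beyond what their construction shows, the cause was not tested.

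Signal over background is not in the deposited values, so dim probes could not be set aside. Wild types were measured only as pools, dye and genotype cannot be told apart in embryos, and the labels do not state the adult direction. The self-test made calls at these sample sizes, for changes larger than those of most members.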
